A study of Rattus norvegicus with 30 samples.

Results

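The miR-181 family is a group of 4 microRNAs, miR-181a, miR-181b, miR-181c and miR-181d, that begin with the same bases and differ further along the strand. The members were chosen by name, as the probes rno-miR-181a, rno-miR-181b, rno-miR-181c and rno-miR-181d in the raw spot tables, with the passenger strands of the hairpins left out. All 4 were present, among 388 rat miRNA names on the hepatectomy chips and 680 on the sham chips, with 376 names on both. Male Wistar rats underwent 70% partial hepatectomy, and liver was taken at 0, 2, 6, 12, 24 and 48 h and 5 d. Other rats underwent sham laparotomy, in which the abdomen is opened and the liver is not resected, and were sampled at 12, 24 and 48 h. Each of the 10 groups held 3 arrays, which the labels call biological replicates, 21 for hepatectomy and 9 for sham, and there was no sham group at 0 h. Total liver RNA was hybridised to a febit chip, a 1-colour array where each bound miRNA serves as the primer for an enzyme that then adds biotin-labelled bases. Whether an animal gave more than 1 array, and the age of the animals, are not stated in the labels.

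A microRNA guides a silencing complex to messenger RNAs, mainly through pairing of the bases near its 5′ end that are called the seed, and the targeted messages are translated less or decay faster. In mice, miR-181a is known from lymphocytes, where it promotes B cell development and tunes the sensitivity of the T cell receptor. In human liver cancer the family has been tied to cells with stem cell features and to messages for CDX2, GATA6 and NLK. TGF beta, a growth factor that restrains hepatocyte division, raises miR-181b in cultured liver cells, and the tissue inhibitor of metalloproteinases TIMP3 is a described target. Liver that regrows after resection passes through a wave of hepatocyte DNA synthesis around a day after surgery in rats, and the series follows miRNAs across that wave.

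The mature strands are printed because the shared seed and the few bases that differ define the family and bear on how well probes can tell its members apart. They were matched by name in the RefSeq sequence table of rat build GRCr8, and the capitals mark the seed, bases 2 to 8.
miR-181a: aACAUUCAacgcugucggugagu
miR-181b: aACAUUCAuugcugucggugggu
miR-181c: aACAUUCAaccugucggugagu
miR-181d: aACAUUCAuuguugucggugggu
All 4 members share the seed ACAUUCA, and among 693 rat mature names of the table these 4 were the only ones that carry it. Counting from 1 at the 5′ end of the first member named, miR-181a and miR-181b differed by the substitutions A9U, C10U and A21G. miR-181b and miR-181d differed by C12U alone, an identity of 95.7%. miR-181c lacked 1 base that miR-181a has at position 11 and was otherwise the same, also 95.7%. The least alike pair was miR-181c and miR-181d, with an identity of 78.3%. Probe sequences were not used here, so how far a probe for one member also captures another was not tested.

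The genes lie in pairs. On the + strand of GRCr8, miR-181a was placed at chr13:52037081-52037103, from Mir181a-1, and again at chr3:43025601-43025623, from Mir181a2. miR-181b was placed at chr13:52037263-52037285, from Mir181b1, which follows Mir181a-1 within the long non-coding gene LOC108352541. In the GRCr8 gene table Mir181b2 likewise follows Mir181a2, and both overlap the protein-coding gene Nr6a1, which encodes an orphan nuclear receptor. miR-181c was placed at chr19:40888314-40888335 and miR-181d at chr19:40888484-40888506, outside any other annotated gene. Their closest annotated miRNA neighbours on one side were Mir24-2, Mir27a and Mir23a, which make up another miRNA cluster. One probe name for miR-181a therefore reads the product of both of its genes, which this chip cannot separate. The probe name for miR-181b may likewise read the products of Mir181b1 and Mir181b2, although the sequence table placed its mature strand at Mir181b1 alone.

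Median raw spot intensity over all names was 976 to 1328 on 13 hepatectomy arrays, 544 to 608 on the other 8, and 296 to 408 on the sham arrays. The 24 h group held brighter arrays only. The 0, 2, 6, 12 and 48 h and 5 d groups each held arrays of both kinds. What separates the 2 classes of hepatectomy arrays is not given in the labels. In bulk liver RNA, fewer cells of a type and less RNA per cell cannot be told apart.

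The family lay close to the chip background in this tissue. The authors' background-subtracted medians, the median of a name's spots minus a constant for each array, are on a linear intensity scale on which 0 is background, and the 3 values of a time follow that table's own replicate letters. miR-181a read between -32 and 304 over the 21 hepatectomy arrays, with a median of 136, and was at or below background on 1 of them. miR-181b read between -128 and 104, with a median of 16, and was at or below background on 9 arrays. miR-181c ran between -40 and 200, with a median of 64, and miR-181d between -16 and 224, with a median of 48. These 2 were at or below background on 2 and 4 arrays.

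Set against the median of all names on the same array, miR-181a lay above it on 18 of 21 arrays, miR-181d on 6, and miR-181b and miR-181c on 1 each. No member reached the 90th percentile of its array on any hepatectomy or sham array. Because brightness depends on the probe, these counts say how far each signal stands out of the chip's general signal and give no order of abundance among the members. On the 9 sham arrays, in the authors' table of medians, miR-181a read 16 to 68 and was above background on all 9. miR-181b read -36 to 36 and was at or below background on 1. miR-181c and miR-181d reached at most 12 and 48 and were at or below background on 4 and 5 of the 9 arrays.

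The background-subtracted readings moved with the array as a whole. miR-181a read 128, 88 and 120 at 0 h, 56, 40 and 72 at 2 h, and 164, -32 and 272 at 6 h. It read 216, 304 and 160 at 12 h, 304, 152 and 136 at 24 h, 120, 20 and 208 at 48 h, and 192, 176 and 48 at 5 d. The median of all names on the same arrays was 64, 40 and 64 at 0 h, 112, -16 and 176 at 6 h, and 264, 144 and 112 at 24 h. The array on which miR-181a was lowest, replicate 2 at 6 h, was thus also the array with the lowest overall median.

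miR-181b read -16, 8 and 48 at 0 h, 0, 16 and 0 at 2 h, and 56, -80 and 0 at 6 h. It read 80, 80 and -8 at 12 h, 104, 56 and -48 at 24 h, 88, 56 and -128 at 48 h, and 72, 16 and -32 at 5 d. Each time held at least 1 array at or below background. miR-181c read 64, 40 and 64 at 0 h, 80, 108 and 128 at 12 h, 200, 120 and 108 at 24 h, and 56, 8 and 48 at 48 h. miR-181d read 32, 48 and -16 at 0 h, 48, 136 and 176 at 12 h, 224, 224 and 112 at 24 h, and 88, 120 and 16 at 48 h. The 24 h readings of miR-181c and miR-181d were all above their 0 h readings, and on those same 24 h arrays the median of all names was also above its 0 h readings.

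**Figure D1:**
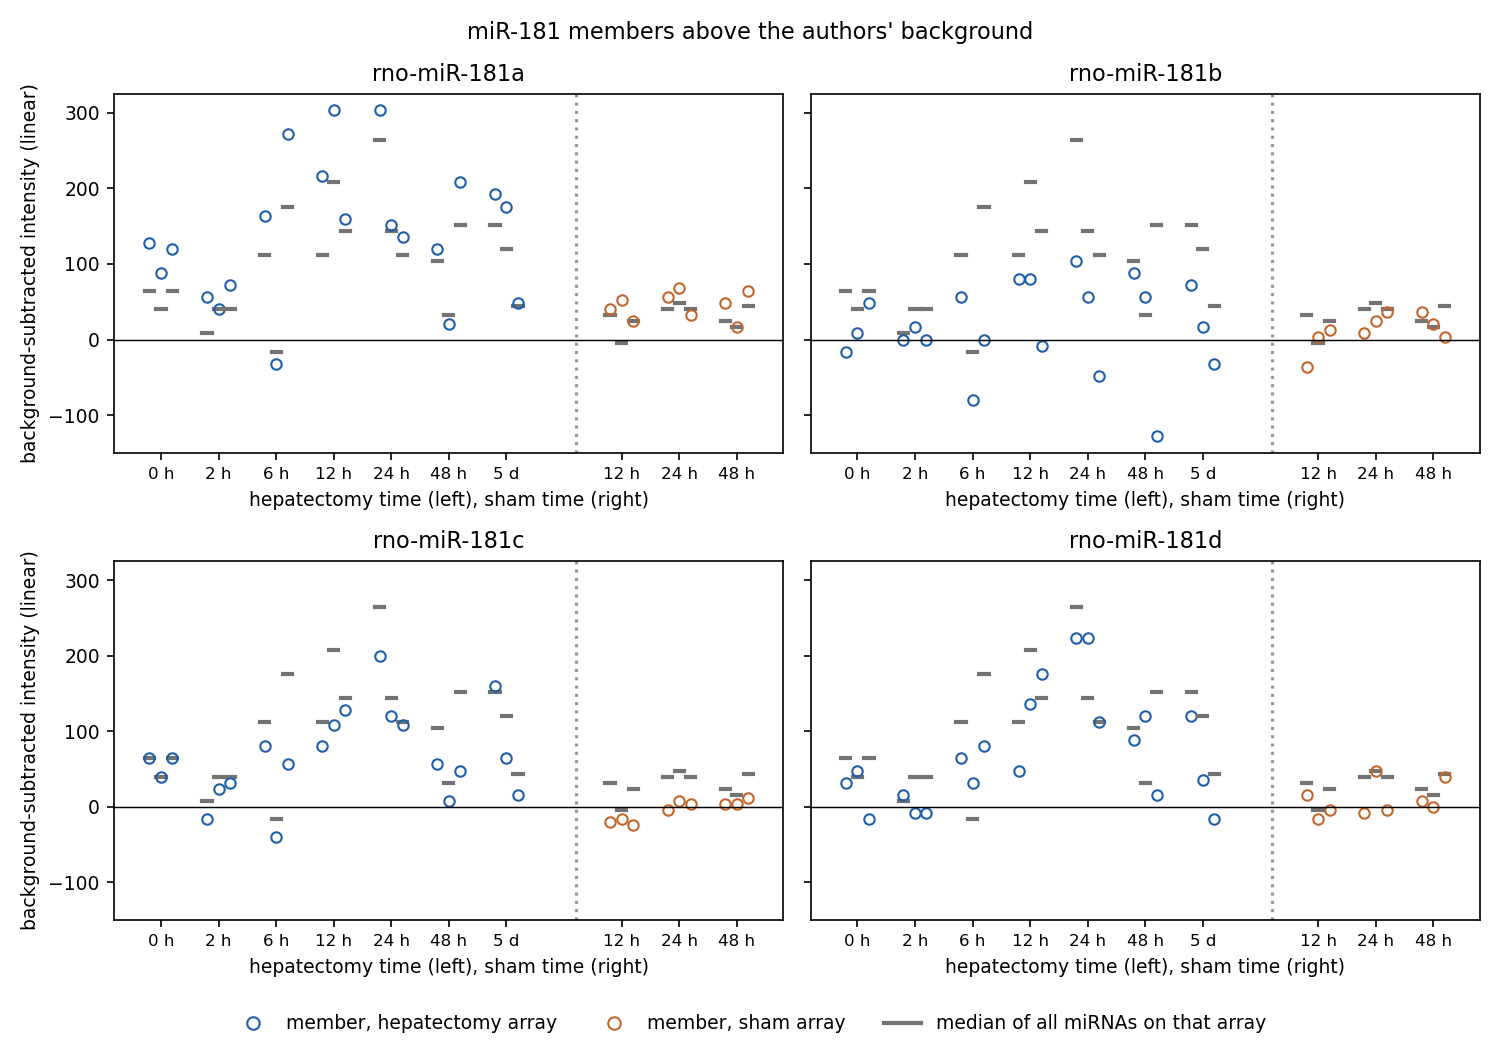
Authors' background-subtracted median intensity (linear scale, vertical axis) of miR-181a, miR-181b, miR-181c and miR-181d on each of the 21 hepatectomy arrays and, right of the dotted line, the 9 sham arrays, by time after surgery. Points are arrays, grey bars the median of all miRNAs on the same array, and 0 is background; on hepatectomy arrays miR-181a lies above the bar on 18 and miR-181b on 1.

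The spots of one name on one array give the technical error. Each name had 15 spots on a hepatectomy array and 22 on a sham array. The median SD of log2 raw intensity over the spots of an array was 0.195 for miR-181a, 0.211 for miR-181b, 0.182 for miR-181c and 0.251 for miR-181d on hepatectomy arrays. On sham arrays it was 0.372, 0.431, 0.362 and 0.445 in the same order of members. Single spots stood far out: on replicate 1 at 48 h, the miR-181a spots had a raw median of 1352, a lowest value of 960 and a highest of 3841, beside an array median of 1328. On replicate 2 at 12 h they ran between 984 and 2153, with 2 spots missing.

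**Figure D2:**
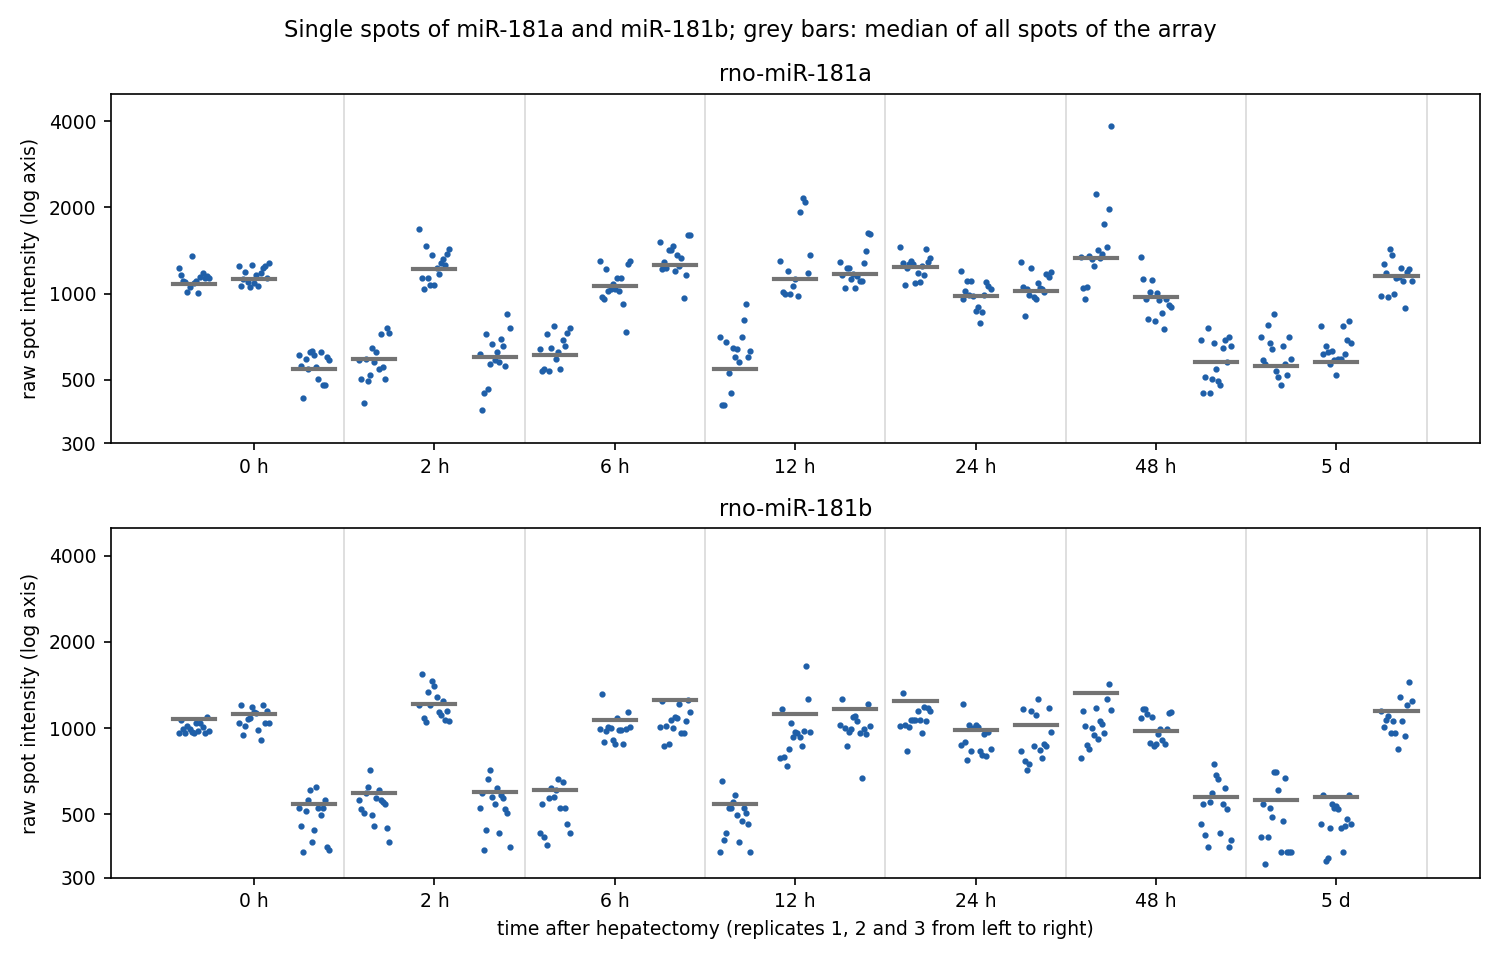
Raw spot intensity (log axis) of miR-181a and miR-181b, with 1 point for each spot and 1 column for each hepatectomy array, in order of time after resection. Grey bars are the median of all miRNAs on the array; most spots of both members lie near the bar, and the highest miR-181a spot, at 3841, is on replicate 1 at 48 h.

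For the comparisons, raw intensities were background-corrected with an added offset of 50, log2 transformed, quantile-normalized between arrays and averaged over spots. The offset compresses changes of dim probes. At 0 h it made up 19.4% of the linear signal of miR-181a, 34.2% of miR-181b, 24.8% of miR-181c and 30.3% of miR-181d. A doubling of the signal above the offset would therefore appear as a log2 difference of 0.853 for miR-181a and 0.73 for miR-181b. How much of that signal is bound miRNA was not tested. The linear signal of miR-181b at 0 h was 146, while the mean of its background-subtracted medians was 13.3. A doubling of the miRNA alone could thus appear smaller.

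miR-181a, which comes from 2 loci, had log2 levels of 8.11, 8.02 and 7.89 at 0 h, 7.66, 7.86 and 7.82 at 2 h, and 8.0, 7.85 and 7.98 at 6 h. Its levels were 8.10, 8.14 and 8.01 at 12 h, 7.77, 7.83 and 7.95 at 24 h, 8.07, 7.56 and 7.80 at 48 h, and 8.06, 8.14 and 7.80 at 5 d. The group means were highest at 12 h, at 8.09 ± 0.06, and lowest at 2 h, at 7.78 ± 0.10 (SD, n = 3 each), and the 2 and 0 h arrays did not overlap. In order, the means ran 2 h, 48 h (7.81 ± 0.26), 24 h (7.85 ± 0.09), 6 h (7.94 ± 0.09), 5 d (8.0 ± 0.18), 0 h (8.01 ± 0.11) and 12 h, and the arrays of every neighbouring pair in that order overlapped.

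miR-181b, encoded next to miR-181a, had levels of 6.91, 7.34 and 7.33 at 0 h, 7.38, 7.63 and 7.32 at 2 h, and 7.25, 7.20 and 6.96 at 6 h. Its levels were 7.31, 7.11 and 7.02 at 12 h, 6.98, 7.39 and 7.21 at 24 h, 6.79, 7.92 and 7.40 at 48 h, and 7.24, 6.97 and 7.49 at 5 d. The 48 h arrays alone spanned both the lowest and the highest level of the series. The means ran between 7.14 ± 0.15 at 6 h and 7.44 ± 0.16 at 2 h, a range of 0.31 against a pooled SD within groups of 0.28.

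miR-181c, encoded apart from the first pair, had levels of 7.63, 7.60 and 7.74 at 0 h, 7.62, 7.76 and 7.75 at 2 h, and 7.54, 7.59 and 7.22 at 6 h. Its levels were 7.54, 7.83 and 7.45 at 12 h, 7.41, 7.77 and 7.80 at 24 h, 7.35, 7.59 and 7.39 at 48 h, and 7.72, 7.28 and 7.43 at 5 d. All 6 h arrays, and all 48 h arrays, lay below the 3 arrays at 0 h, by a narrow margin for the highest of each. The means ran between 7.44 ± 0.12 at 48 h and 7.71 ± 0.08 at 2 h, a range of 0.27 against a pooled SD of 0.17.

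miR-181d, the partner of miR-181c, had levels of 7.38, 7.60 and 7.11 at 0 h, 7.35, 7.81 and 7.27 at 2 h, and 7.26, 8.01 and 7.18 at 6 h. Its levels were 7.36, 7.49 and 7.67 at 12 h, 7.64, 8.07 and 7.48 at 24 h, 7.42, 7.92 and 7.39 at 48 h, and 7.30, 6.99 and 7.65 at 5 d. Its mean was highest at 24 h, at 7.73 ± 0.31, and lowest at 5 d, at 7.31 ± 0.33, a range of 0.42 against a pooled SD of 0.31. At all 7 times the array with the highest miR-181d level was one of the 13 brighter arrays. At 24 h this could not be otherwise, as that group held brighter arrays only. Over the 21 arrays the miR-181d level and the array's raw median had a Pearson r of 0.528, given as a description. For each of miR-181b, miR-181c and miR-181d too, the arrays of all 6 neighbouring pairs of groups overlapped.

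**Figure D3:**
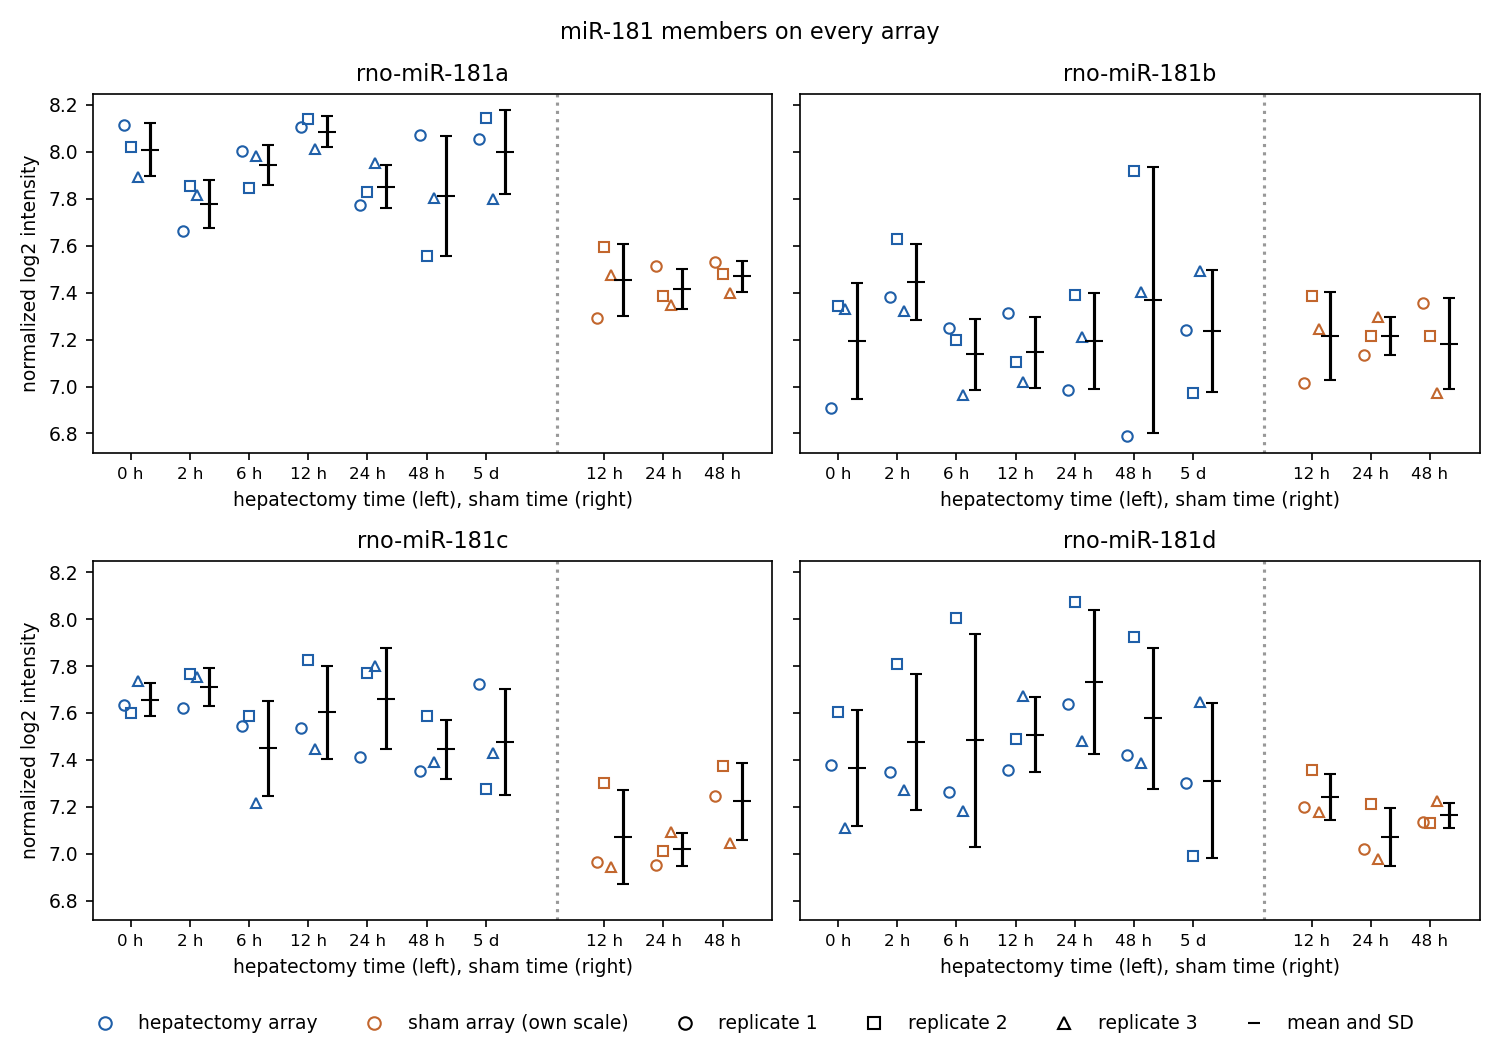
Normalized log2 intensity of the 4 members by hours or days after hepatectomy and, right of the dotted line and normalized separately, after sham laparotomy; points are arrays, and bars are the mean and SD of 3 arrays. The hepatectomy means of each member lie within 0.42 of one another.

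The time course asked whether any member differed among the 7 hepatectomy times. None passed limma's moderated F test after Benjamini-Hochberg adjustment over the 388 names, at a threshold of 0.05, where 2.32% of all names did. The adjusted p was 0.683 for miR-181a, 0.929 for miR-181b, 0.783 for miR-181c and 0.897 for miR-181d. No member reached an unadjusted p of 0.05 in this test.

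Each later time was then set against 0 h, the start of the course. Of the 24 differences of the 4 members, 0 passed limma's test and 0 had an unadjusted p under 0.05. Over all names the shares that passed at 2, 6 and 12 h were 0%, 0.258% and 2.84%, and those at 24 h, 48 h and 5 d were 7.73%, 4.12% and 0.258%. The 6 comparisons share the 3 arrays at 0 h, so they are not independent of each other. The 24 differences lay between -0.23 and 0.37 on the log2 scale, and their 95% intervals between -0.54 and 0.86, or between 0.686 and 1.81 times the 0 h level on the scale that includes the offset. Each interval is that of 1 member at 1 time, from 3 arrays per group.

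At 2 h the difference of miR-181a was -0.23 (SE 0.14, adjusted p = 0.949, limma). Its 2 and 0 h arrays did not overlap, which was so for 13.7% of all names, and over 21 alternatives the difference ran between -0.51 and -0.01. miR-181b was at 0.25 (SE 0.22), miR-181c at 0.06 and miR-181d at 0.11. At 6 h miR-181c was at -0.21 (SE 0.15, adjusted p = 0.862, limma), again without overlap of the arrays, as for 13.4% of all names, and the other members were at -0.07 (miR-181a), -0.06 (miR-181b) and 0.12 (miR-181d). At 12 h all 4 lay between -0.05 and 0.14, and the arrays of each overlapped with those at 0 h, where 25.3% of all names did not overlap.

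At 24 h, the time with the most names past the threshold, miR-181d was at 0.37 (SE 0.24, 95% interval -0.12 to 0.86, adjusted p = 0.336, limma). This was the largest of the 24 differences, and its arrays overlapped with those at 0 h. Its size depended on the processing and ran between 0.13, with no background correction, and 1.11, with the authors' processed values (adjusted p = 0.349), over 19 alternatives that all kept its sign. With only the brighter arrays in the fit it was 0.24 (adjusted p = 0.748), and 0.24 with the brightness class as a block. With arrays weighted by their quality it was 0.49 (adjusted p = 0.0424, limma), the only setting of those tried in which a member passed against 0 h. In that setting 92 of 388 names passed, and 30 without weights. miR-181a was at -0.16 (95% interval -0.45 to 0.13, adjusted p = 0.502), and miR-181b and miR-181c both at 0.00. The members' median difference was 0.00, beside 0.07 for all 388 names, and 33% of all names, but none of the members, had arrays that did not overlap.

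At 48 h miR-181c was at -0.21 (adjusted p = 0.517, limma), without overlap, as for 18% of all names. miR-181a was at -0.20, miR-181b at 0.18 and miR-181d at 0.21. By 5 d the differences were -0.01 for miR-181a, 0.04 for miR-181b, -0.18 for miR-181c and -0.05 for miR-181d, all with overlapping arrays, where 16.2% of all names did not overlap. Over 20 alternatives each, miR-181c ran between -0.82 and 0.05 at 6 h and between -0.90 and 0.13 at 48 h. The signs at 48 h depended on the scaling, so no direction is given for the family. With no normalization all 4 members were above 0, between 0.13 and 0.55, where the median of all names was 0.47. With 75th percentile centring all 4 were below 0, between -0.43 and -0.01, where that median was -0.09.

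**Figure D4:**
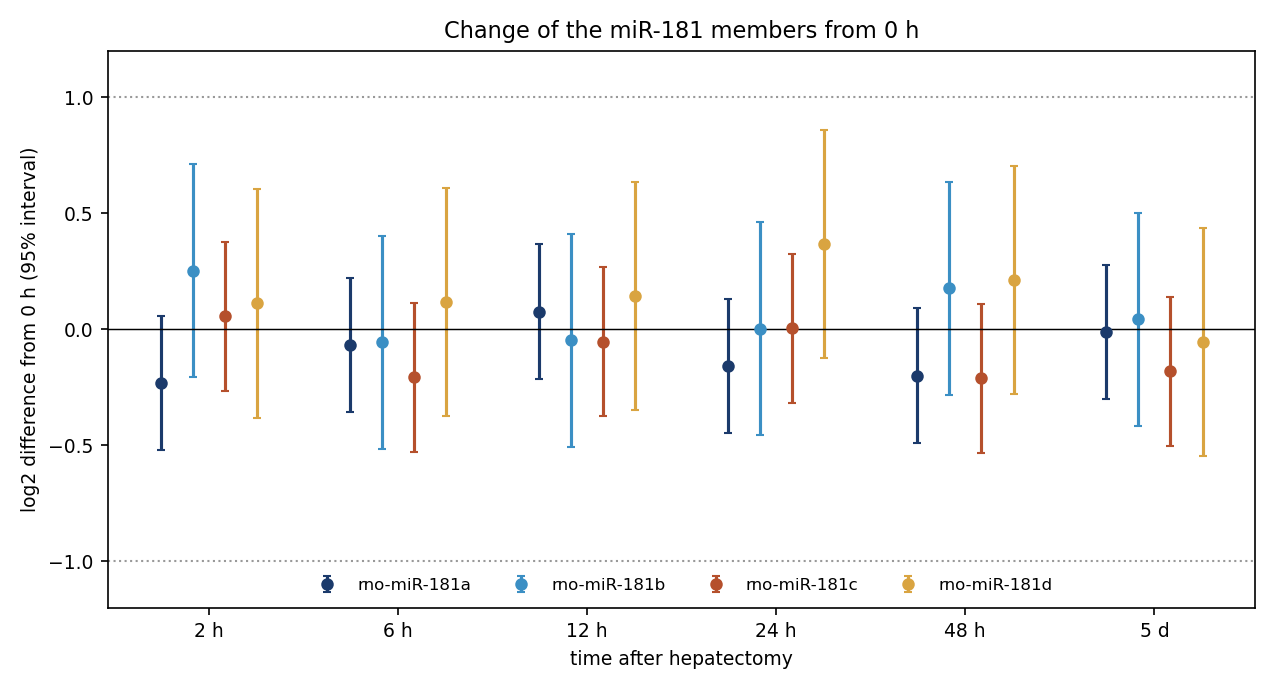
Log2 difference of each member from 0 h at each later hepatectomy time, with 95% intervals from limma. Every interval includes 0, the highest upper bound is 0.86 for miR-181d at 24 h, and dotted lines mark differences of 1 in either direction.

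Later times were also set against 24 h. None of the 8 differences passed, and none had an unadjusted p under 0.05, where 0% of all names passed at 48 h and 0.515% at 5 d. The arrays of every member overlapped in both comparisons, where 9.02% and 16% of all names had no overlap. miR-181d at 5 d against 24 h had the largest, -0.42 (SE 0.24, 95% interval -0.91 to 0.07, adjusted p = 0.66, limma). Over 19 alternatives it ran between -1.43, with the authors' processed values (adjusted p = 0.442), and -0.09, in the brighter arrays alone, of which 5 d holds 1. It was -0.17 with the brightness class as a block. With array weights it was -0.66 and passed (adjusted p = 0.0214, limma). In that setting 18 of 388 names passed, and 2 without weights.

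The sham times were compared among themselves as the control for surgery without resection. The miR-181a means were 7.45 ± 0.15 at 12 h, 7.42 ± 0.09 at 24 h and 7.47 ± 0.07 at 48 h (SD, n = 3 each), and the miR-181b means 7.22 ± 0.19, 7.21 ± 0.08 and 7.18 ± 0.19 at the same times. For miR-181c they were 7.07 ± 0.20, 7.02 ± 0.07 and 7.22 ± 0.16, and for miR-181d 7.24 ± 0.10, 7.07 ± 0.12 and 7.16 ± 0.05. Arrays of neighbouring means overlapped for every member. In limma's moderated F test 0 of the 4 members passed, with adjusted p between 0.864 and 0.99, and 0% of the 680 names passed, although 45 had an unadjusted p under 0.05. None of the 12 pairwise differences of the members passed or had an unadjusted p under 0.05. They lay between -0.17 and 0.20, with overlapping arrays throughout, where 14% of all names did not overlap for 24 against 12 h, 12.4% for 48 against 12 h and 8.68% for 48 against 24 h.

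Hepatectomy was compared with sham at the 3 shared times in a joint fit of the 376 shared names, normalized together. The 2 operations stood on different chip layouts, so operation and layout cannot be told apart in these differences. None of the 12 member differences passed, and 2 had an unadjusted p under 0.05, both of miR-181c. Over all names 1.06% passed at 12 h, 11.4% at 24 h and 2.39% at 48 h. An unadjusted p under 0.05 was reached by 75, 97 and 55 of the 376 names at these times, so the members' count does not set them apart.

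miR-181c stood at 7.49, 7.55 and 7.35 in hepatectomy livers at 12 h, against 7.01, 7.45 and 6.98 in sham livers. The difference was 0.32 (SE 0.14, unadjusted p = 0.0293, adjusted p = 0.175, limma), with overlap. With 75th percentile centring in place of quantiles it was -0.08. At 24 h it stood at 7.41, 7.57 and 7.56 in hepatectomy livers, against 7.11, 7.18 and 7.30 in sham livers, again a difference of 0.32 (unadjusted p = 0.0281, adjusted p = 0.135, limma) and here without overlap. At 48 h the levels were 7.17, 7.38 and 7.33 in hepatectomy livers, against 7.45, 7.69 and 7.23 in sham livers, a difference of -0.17 (adjusted p = 0.63, limma). Over 17 alternatives each, these differences ran between -0.08 and 0.82 at 12 h, 0.12 and 0.95 at 24 h, and -0.28 and 0.30 at 48 h, so the sign held in all of them at 24 h alone. The sham side lay near background. The authors' background-subtracted medians of miR-181c in sham livers were -24 to -16 at 12 h, -4 to 8 at 24 h and 4 to 12 at 48 h.

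miR-181b stood at 7.15, 7.23 and 7.06 in hepatectomy livers at 24 h, against 7.38, 7.48 and 7.59 in sham livers, a difference of -0.33 (SE 0.18, adjusted p = 0.235, limma). These arrays did not overlap either. Over 17 alternatives the difference ran between -1.55, with the authors' processed values (adjusted p = 0.12), and -0.10, with no normalization. Of the 4 members 2, miR-181b and miR-181c, had no overlap at 24 h, where 37.2% of all names had no overlap, and the 2 differed in opposite directions. At 12 and 48 h every member's arrays overlapped, where 26.3% and 17.8% of all names did not overlap. miR-181b was at -0.32 at 12 h and -0.04 at 48 h. miR-181d was at -0.01, 0.31 and 0.13 at 12, 24 and 48 h, and miR-181a at 0.09, -0.03 and -0.13. The 24 h difference of miR-181d ran between 0.12, with no background correction, and 1.41, with the authors' processed values (adjusted p = 0.149).

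With no normalization, miR-181a and miR-181c passed at 12 h, with differences of 0.97 (adjusted p = 0.0240, limma) and 0.82 (adjusted p = 0.0232). In that setting the median difference of all 376 names was 0.64, a shift that both members' values include. Of the 376 names 148 passed there, and 4 with quantile normalization. With array weights miR-181b (-0.35, adjusted p = 0.0331, limma) and miR-181d (0.36, adjusted p = 0.0276) passed at 24 h. With these weights 123 of 376 names passed, and 43 without them.

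**Figure D5:**
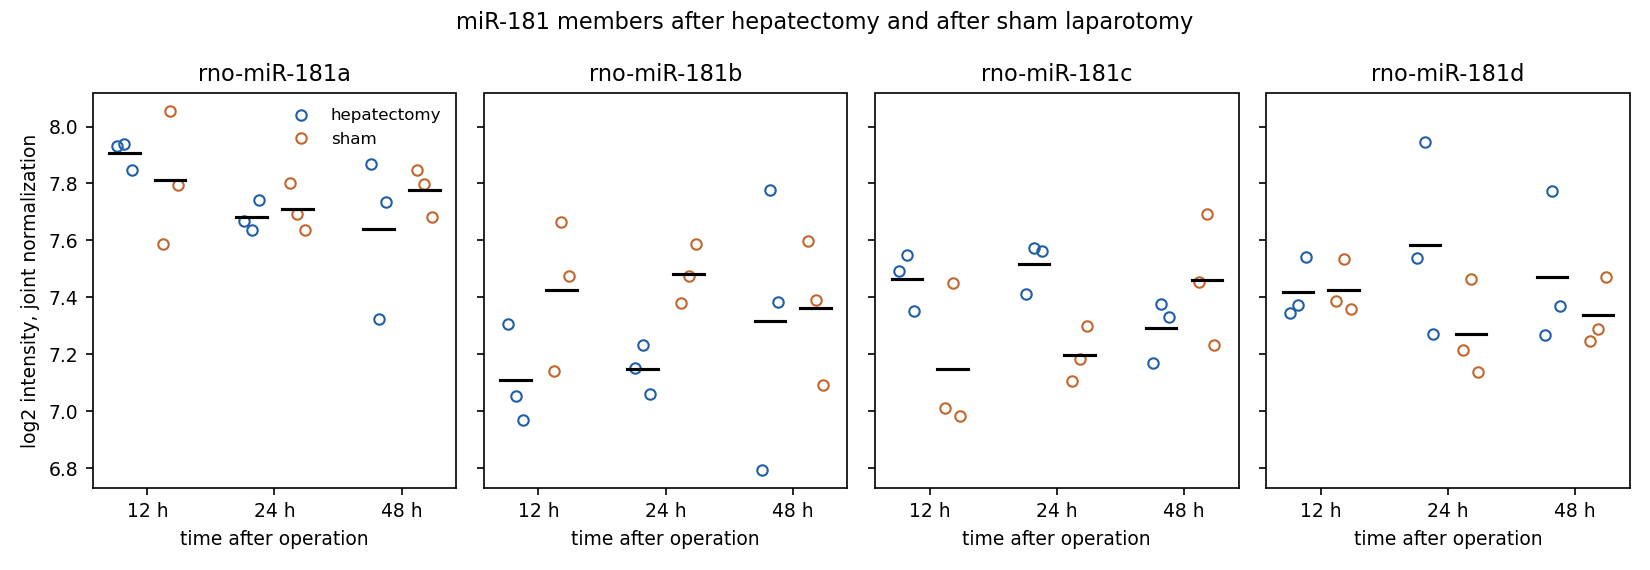
Normalized log2 intensity of the 4 members on the joint scale of 376 shared miRNAs, with hepatectomy left of sham at 12, 24 and 48 h; points are arrays and black bars the mean of 3 arrays. At 24 h the arrays of miR-181b and of miR-181c do not overlap between the operations, with hepatectomy lower for miR-181b and higher for miR-181c.

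A constant offset between layouts cancels when the change between 2 times is compared between operations. Of 12 such differences in change 0 passed, with adjusted p between 0.926 and 0.996 (limma), and 2 had an unadjusted p under 0.05. Both were of miR-181c: its change between 12 and 48 h was lower after hepatectomy than after sham by a log2 difference of -0.48 (SE 0.19, unadjusted p = 0.0192), and that between 24 and 48 h by -0.49 (SE 0.19, unadjusted p = 0.0185). Both share the 48 h arrays, and the sham readings of miR-181c behind them lay near background, as given above. Over 23 alternatives each, they ran between -0.97 and -0.18 and between -1.13 and -0.18, and none passed. No name passed in any of the 3 changes (0%), where 18, 11 and 18 of 376 had an unadjusted p under 0.05.

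Whether the members moved apart over time was tested on differences within an array, which remove a shift common to both members. A relation to brightness that differs between members stays in. Pearson r with the array's raw median was 0.528 for miR-181d and 0.0216 for miR-181a. miR-181a minus miR-181b was 0.33 ± 0.14 at 2 h and 0.94 ± 0.13 at 12 h, its lowest and highest group means (SD, n = 3 each). miR-181c minus miR-181d was -0.13 ± 0.18 at 48 h and 0.29 ± 0.32 at 0 h. For 0 of the 6 pairs did the differences vary with time beyond the spread within groups (permutation F test with 100000 resamples, adjusted p = 0.543 for each of the 6, lowest unadjusted p = 0.209 for miR-181a with miR-181c). No pair had an unadjusted p under 0.05.

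Across the 21 hepatectomy arrays, miR-181a and miR-181b ran in opposite directions on the normalized scale (Pearson r = -0.685, permutation p = 0.00058, adjusted p = 0.00348 over 6 pairs). Spearman's rho was -0.629 (permutation p = 0.00281, adjusted p = 0.0169). Without the 2 arrays farthest from the median of miR-181a, r was -0.532 (n = 19). Within the brightness classes it was -0.743 over 13 arrays and -0.729 over 8, and -0.691 after group means were removed. The relation depended on the processing. It was -0.163 with the median of spots in place of their mean, under the same quantile normalization. Under other scalings r was 0.181 with no normalization, -0.512 with median centring, -0.266 with 75th percentile centring, -0.206 with the authors' background-subtracted values and 0.0321 with the authors' processed values. Over the 9 sham arrays r was 0.616 with the mean of spots and 0.266 with their median. The level of miR-181a had an r of 0.448 with the array's signal span (95th percentile minus median of log2 signal) and that of miR-181b an r of -0.365, and their part in the relation was not tested. The other 5 pairs had adjusted p of 0.0997 or more for r by permutation.

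The passenger strands, cut from the other arm of the same hairpins and usually degraded, were measured in part. On the hepatectomy chips the only one was miR-181a*. Its means at 0, 2, 6 and 12 h were 7.53 ± 0.07, 7.53 ± 0.09, 7.65 ± 0.03 and 7.63 ± 0.05. Those at 24 h, 48 h and 5 d were 7.84 ± 0.04, 7.65 ± 0.16 and 7.74 ± 0.08 (SD, n = 3 each). At 24 h its arrays lay between 7.80 and 7.87, against 7.49 to 7.60 at 0 h, so the groups did not overlap, as for 33% of all names. The difference of 0.32 (SE 0.11, 95% interval 0.08 to 0.55, unadjusted p = 0.0111) did not pass after adjustment (adjusted p = 0.0756, limma). Of all 388 names 105 had an unadjusted p under 0.05 at 24 h against 0 h. The F test over the 7 times gave an adjusted p of 0.546. Mature miR-181a was at -0.16 in the same comparison. The raw spot median of miR-181a* lay above the array's median on 2 of 21 hepatectomy arrays. The alternatives were run for the members alone, so the difference of miR-181a* was not checked under them, and the 24 h group held brighter arrays only.

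The sham chips held 6 passenger strands. In background-subtracted spot medians over the 9 arrays, miR-181b-1* read 108 to 212, with a median of 136, and lay above the array's median of all names on 9 of 9 arrays. miR-181b-2*, miR-181a-2* and miR-181d* had medians of 76, 64 and 88 and each lay above the array's median on 8 arrays. miR-181a-1* had a median of 40 and miR-181c* one of 12, on 3 and 0 arrays above. Probes differ in brightness, so no order between strands can be read from these counts.

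The names whose levels ran most like a member's over the 21 hepatectomy arrays were, by Pearson r among names above the median level, miR-293 (0.664), miR-324-5p (0.607) and miR-200c (0.603) for miR-181a. For miR-181b the closest were miR-20a (0.344), miR-365 (0.291) and miR-423 (0.224). For miR-181c they were miR-199a-5p (0.578), miR-129* (0.496) and miR-495 (0.453), and for miR-181d miR-742 (0.507), miR-881 (0.505) and miR-873 (0.475). These arrays share groups, brightness classes and one normalization. Of the members only miR-181a had a mean above the median level, and the members themselves were left out of this ranking.

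Other miRNAs tied to TGF beta and to epithelial to mesenchymal transition form the setting in which the family is best known in liver. Of 18 listed, 17 were measured. At 24 h against 0 h 0 were higher and 1 lower, miR-145, a smooth muscle and stellate cell miRNA (-1.12, adjusted p = 0.015, limma). Among all names 2.84% were higher and 4.9% lower. The median of the 17 was -0.31, beside 0.07 for all names. At 24 h 1 of the 17 was higher in hepatectomy livers than in sham livers and 4 were lower, where 4.52% of all names were higher and 6.91% lower. The 4 were miR-23a (-1.43, adjusted p = 0.000157), miR-29a, which represses collagens (-1.43, adjusted p = 0.00394), miR-145 (-0.89, adjusted p = 0.00881) and miR-27a (-0.88, adjusted p = 0.0206), all by limma. The 1 higher, miR-141 of the epithelial miR-200 family (0.57, adjusted p = 0.0498), is named because it completes the count and was chosen after its values were seen. At 48 h miR-23a alone of the list was lower than in sham livers (-1.10, adjusted p = 0.00444, limma), where 2.13% of all names were lower and 0.266% higher.

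miR-23a and miR-27a are encoded beside miR-181c and miR-181d on chromosome 19. At 24 h against 0 h miR-23a was at -0.91 (adjusted p = 0.0707, limma), miR-27a at -0.82 (adjusted p = 0.0575) and miR-24 at -0.31 (adjusted p = 0.688), beside 0.00 for miR-181c and 0.37 for miR-181d. miR-24 comes from a second locus as well. None of these 5 differences passed.

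Some listed markers of other cells also passed. At 24 h against 0 h, endothelial miR-126 fell (-1.52, adjusted p = 0.0113, limma), stellate and mesenchymal miR-145 fell as given, leukocyte miR-142-5p rose (0.49, adjusted p = 0.042), miR-146a of the leukocyte list fell (-0.68, adjusted p = 0.039), and miR-153 of the neural list rose (0.87, adjusted p = 0.00629). These were 1 of 1 endothelial, 1 of 5 stellate, 2 of 5 leukocyte and 1 of 4 neural names measured, and 0 of 3 hepatocyte, 0 of 2 erythroid and 0 of 5 biliary names passed. Of all names 7.73% passed, and the 2 leukocyte names went in opposite directions. At 12 h miR-142-5p (0.56, adjusted p = 0.0376) and miR-146a (-0.85, adjusted p = 0.0179) of the leukocyte list passed, and no other listed name did. Of all names 2.84% passed at that time. Against sham at 24 h, miR-146a (-0.82, adjusted p = 0.00538), miR-199a-3p (-0.50, adjusted p = 0.026) and miR-145 of the stellate list, and miR-153 (0.79, adjusted p = 0.00299) passed, besides miR-141 of the biliary list (all by limma). At 48 h against sham miR-199a-3p did (-0.69, adjusted p = 0.00825). Against sham, 11.4% of all names passed at 24 h and 2.39% at 48 h. The hepatocyte markers showed the labelled tissue, with a summed background-subtracted intensity of 2056.5 to 14221 at 24 h, against 10272, 7916 and 56389 at 0 h. The leukocyte list, from the cells in which the family is best known, summed to 568 to 1016 at 24 h, against 176 to 768 at 0 h, while the median of all names was 112 to 264 at 24 h, against 40 to 64 at 0 h. On the normalized scale the median difference at 24 h against 0 h was -0.85 for the hepatocyte list and -0.32 for the leukocyte list, beside 0.07 for all names. The part of cell composition in the members' values was not tested.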

How the data were processed

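Liver miRNAs were measured on 30 one-colour arrays. Per the file headers, the deposited tables give raw spot intensity, background-subtracted intensity (per spot for sham, as medians for all arrays) and a processed value, which the authors gave on a log2 scale. Neither the image software nor the build behind the probes is named in the labels or headers. Raw intensities were corrected with normexp (offset 50), log2 transformed, quantile-normalized and averaged over spots with limma 3.58.1 in R 4.3.3. The joint fit averaged spots first. Missing spots (0.585% of hepatectomy, 0.811% of sham values) were left out. Linear models (lmFit, eBayes) over all groups had 14 (hepatectomy), 6 (sham) and 20 (joint) residual degrees of freedom, and two-sided p values got a Benjamini-Hochberg adjustment over all names of a comparison, at 0.05. The number of arrays limits the precision. Within-array differences were tested by permutation with numpy 2.4.6, and scipy 1.17.1 gave the ranks for Spearman's rho. On data simulated for 24 h against 0 h, the fit over 388 names recovered 37 of 40 changes of 1 log2 unit, 40 of 40 of 2 units, and called 3 of 308 unchanged names. These changes were added to normalized levels of randomly drawn names. The recovery therefore does not cover background correction or the compression of dim probes by the offset, and was not measured for the members. Replicates 1 and 2 at 2 h, and 1 and 3 at 48 h, are exchanged between the raw and the processed tables. Numbers follow each table's own letters, and group values do not depend on them.

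The named miRNAs were the members, their passenger strands, the 3 names most correlated with each member, and up to 4 passing names of each list (TGF beta and epithelial to mesenchymal transition, hepatocyte, leukocyte, erythroid, endothelial, stellate, biliary, neural). The members and lists were chosen with earlier results of these data known. Alternatives covered normalization, background, spot summary, array weights, covariates, filters, blocks and single arrays left out.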

Additional observations from a re-analysis of the deposited data

How the results depend on the processing

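In none of the 17 comparisons did a member pass on the values reported above. Over 1329 alternative values of the 68 member differences, 6 passed and 193 changed sign, none of these a value that passed. Over 210 alternative values of the 8 F tests 0 passed (lowest adjusted p = 0.058, limma), and over 144 of the within-array tests 0 passed. Array weights gave 4 of the 6 calls, with 1 member at 24 h against 0 h, 1 at 5 d against 24 h and 2 at 24 h against sham. Among all names, 92 of 388, 18 of 388 and 123 of 376 passed with these weights, in the same order of comparisons. No normalization gave the other 2, at 12 h against sham, where 148 of 376 names passed in that setting. The cause was not tested. Leaving out each array in turn gave 0 calls in 600 values (lowest adjusted p = 0.109). With the replicate number as a block 0 members passed in any comparison (lowest adjusted p = 0.125) and 0 of 68 signs changed. Same-numbered hepatectomy arrays had correlations of -0.765 to 0.783, 32 of 63 over 0.1, and 7 of 21 arrays correlated best with their own number. Sham arrays had -0.194 to 0.37, 5 of 9 over 0.1, and 5 of 9 correlated best with their own number, a hint from the data. As neither set had every correlation over 0.1, the arrays are taken to share only a number. With the block in the sham fit, 3 of 680 names passed for 24 against 12 h, 4 for 48 against 12 h and 2 in the F test, against 0 without it, and none was a member. An alternative restricted to the dimmer arrays was chosen after seeing the data and gave 0 calls. Signal near background and an offset of up to 34.2% of the signal limit what these arrays can show.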
